A study of Rattus norvegicus with 6 samples.

Results

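The 10 genes described here were circadian clock genes of the rat dorsal root ganglion (DRG), namely Arntl, Per1, Per2, Per3, Cry1, Cry2, Nr1d1, Nr1d2, Dbp and Ciart, chosen by symbol from the 43350 gene rows of the deposited expression table. Each symbol belonged to 1 row, so all 10 were found. Of these, 9 were among the 26663 rows tested, which had a mean of at least 0.5 FPKM over the 6 samples, and Ciart lay below that limit. FPKM are counts scaled by gene length and by library total, so they allow levels to be compared between genes of unequal length.

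The study sequenced total RNA from the lumbar ganglia of rats with a chronic constriction injury (CCI) of the sciatic nerve and of sham rats. The CCI group held 3 male Sprague-Dawley rats whose nerve had been loosely ligated, and the sham group held 3 male rats of the same strain whose nerve had been exposed without ligation (the labels list no treatment for them). Ganglia of the operated side were taken on day 11 after surgery, with 1 rat per library according to the methods, although the library protocol in the labels speaks of a pooled sample. The CCI libraries 1, 2 and 3 held 81131861, 80479671 and 75423546 counts, and the sham libraries 1, 2 and 3 held 87615743, 80046488 and 83695350. All animals were kept under a light/dark cycle. Whole ganglia were used, with neurons, glia, immune and vascular cells together, only males were sequenced, and the hour at which each rat was dissected was given neither in the labels nor in the methods.

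The circadian clock is a feedback loop of transcription that runs in most cells of the body. The activator BMAL1, encoded by Arntl, pairs with CLOCK on E-box sequences and drives the Period and Cryptochrome genes, whose proteins return to the nucleus and repress that pair. A second loop joins the repressors REV-ERB alpha and beta, encoded by Nr1d1 and Nr1d2, with the ROR activators on elements of the Arntl gene, and DBP, a D-box activator, carries the rhythm to output genes.

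The clock genes were present at low to moderate levels. The highest mean over the 6 libraries was that of Nr1d2 at 8.57 FPKM, followed by Cry2 at 8.36 FPKM, and these differed by less than their SDs over the libraries of 1.14 and 0.726 FPKM. Nr1d1 at 5.79 FPKM and Per1 at 4.97 FPKM came next, and their libraries overlapped, from 4.31 to 7.75 FPKM for Nr1d1 and from 3.10 to 9.06 FPKM for Per1. Dbp, Per3 and Arntl formed a group of like level, with means of 3.78, 3.66 and 3.53 FPKM. Every Arntl library was above every Cry1 library, whose mean was 1.79 FPKM, and Per2 at 1.49 FPKM did not differ from Cry1 beyond the SD of Cry1 of 0.327 FPKM. Ciart was the lowest at 0.448 FPKM, and its highest library (0.664 FPKM) was below the lowest Per2 library (1.23 FPKM).

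**Figure D1:**
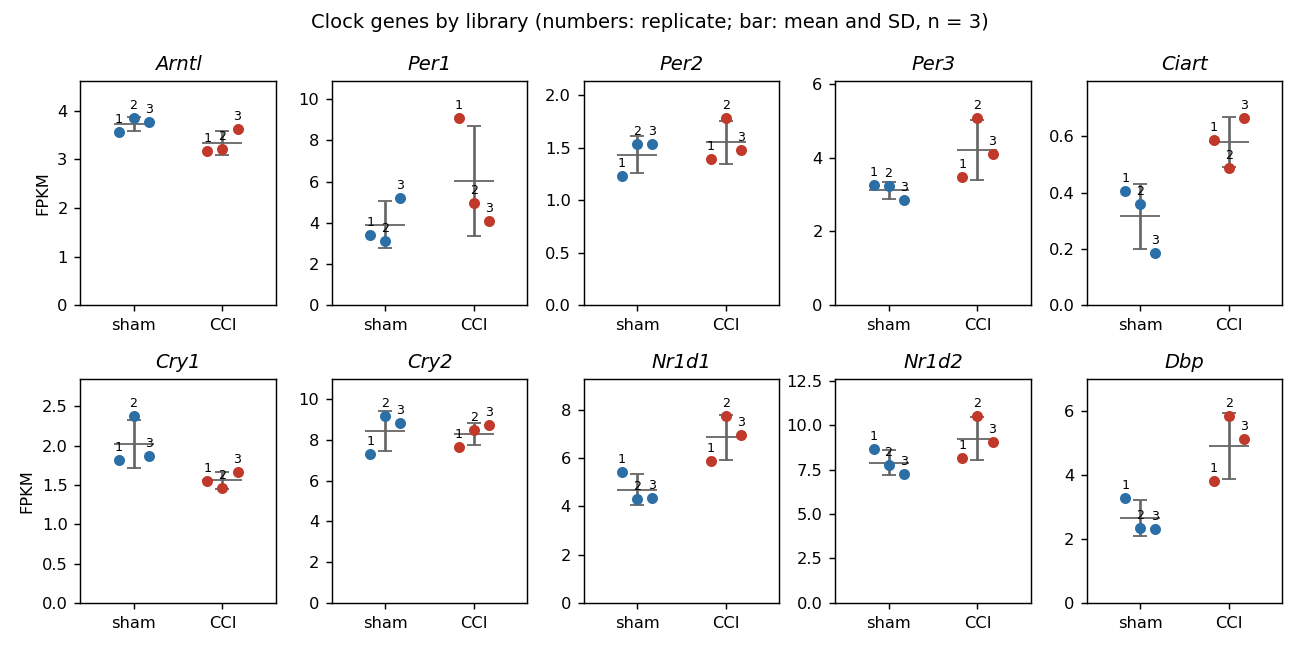
FPKM of each clock gene in the 3 sham and 3 CCI libraries, numbered by replicate, with the group mean and SD as a bar. Each panel starts at 0 and has its own scale, and Dbp runs from 2.29 FPKM in sham 3 to 5.83 FPKM in CCI 2 with no overlap between groups.

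The promoters of 9 of the 10 genes were in the RefSeq table used (build GRCr8), where Arntl is listed under its other symbol Bmal1, and Cry1 was not in it. Each promoter was the stretch from 250 bases before the annotated start to 50 bases after it. Both strands of these promoters were searched for the letters of known clock elements. The letters of the E-box were CACGTG, which read the same on both strands. For the E'-box they were CACGTT and for the D-box TTATGTAA or TTACGTAA. The ROR element was spelled TAGGTCA and the cAMP response element TGACGTCA. Of all 33469 promoters of this length, 6.42% held the E-box letters, 4.83% those of the E'-box, 1.01% those of the D-box, 2.63% those of the ROR element and 1.83% those of the cAMP response element. No 2 matches in the clock genes overlapped. A match is a description of the letters and says nothing of binding in these rats.

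The E-box letters occurred 3 times in the Ciart promoter, at 93, 35 and 21 bases before the annotated start, and this stretch is shown because no other clock gene held more than 1 such match. It lies on the minus strand at chr2:186112247-186112354, with the E-boxes in capitals:
Ciart: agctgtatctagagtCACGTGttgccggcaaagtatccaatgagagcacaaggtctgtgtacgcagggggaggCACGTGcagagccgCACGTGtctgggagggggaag

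The Nr1d1 gene has a pair of promoters in the table, and both held a match upstream of the start. The promoter at the gene's first start carried E'-box letters at 174 bases before it (minus strand, chr10:84231969-84231998), and the second promoter carried an E-box at 191 bases before its start (minus strand, chr10:84229628-84229657). The matches are in capitals:
Nr1d1, first promoter: cgcatagagctcAACGTGcccgctgctgga
Nr1d1, second promoter: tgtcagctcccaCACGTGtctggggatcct

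Per2 held both a D-box (minus strand, chr9:99497167-99497196) and an E'-box (minus strand, chr9:99497038-99497067), at 192 and 62 bases before its start. Cry2 held E'-box letters at 212 bases before its start (minus strand, chr3:98860632-98860661). In Arntl the letters were those of a ROR element, 16 bases before the start on the plus strand (chr1:176766298-176766327), the kind of element on which REV-ERB proteins repress. Matches are again in capitals:
Per2, D-box: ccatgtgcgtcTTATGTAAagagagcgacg
Per2, E'-box: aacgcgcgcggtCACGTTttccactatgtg
Cry2, E'-box: acacatggtgggAACGTGagggggcggggc
Arntl, ROR element: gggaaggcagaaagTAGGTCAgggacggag

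Within these windows of 250 bases before and 50 bases after the start, none of the letters were found in Per1, Per3, Nr1d2 and Dbp. Those of the cAMP response element were in none of the clock genes' windows.

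**Figure D2:**
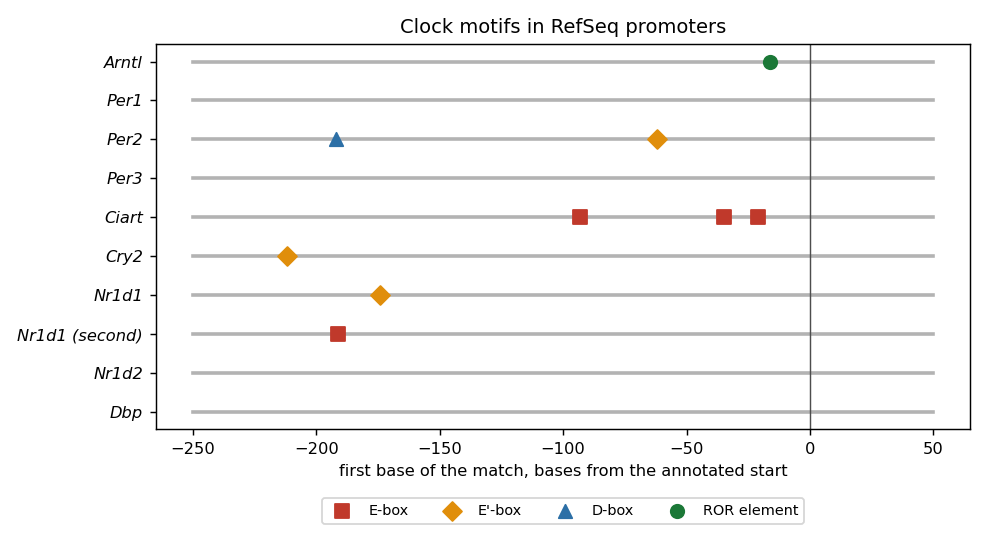
Positions of the motif matches in the RefSeq promoters of 9 clock genes, in bases from the annotated start, with 1 line per promoter and 2 for Nr1d1. Ciart carries 3 E-boxes, and the match nearest to a start is the ROR element of Arntl at -16.

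Across CCI and sham rats the clearest difference was in Dbp, which was higher in the injured group. A row was called when its unadjusted p was under 0.05 and its log2 fold change at least 0.58 in size, the limits used in the study. At these limits 1 of the 9 tested clock genes, Dbp, was called higher, against 2.57% of all rows tested, and 0 were called lower, against 1.26% of all rows. The 9 genes had a median log2 fold change of 0.21, beside 0.01 over all rows tested, and without CCI 2 it was 0.11. With Benjamini-Hochberg adjustment over all rows, edgeR's quasi-likelihood test passed 0 of the 9 at 0.05, against 0.0938% of all rows. At an unadjusted p under 0.05 and any fold, the test gave 3 clock genes higher (Per3, Nr1d1 and Dbp) and 1 lower (Cry1), against 5.57% and 5.18% of all rows. DESeq2 passed 2 of the 9 at an adjusted p under 0.05, Dbp and Nr1d1, against 2.80% of all rows, while limma passed 0 on log2(FPKM + 0.1), against 0.0675% of all rows, and 0 on log2(FPKM + 1), against 0.0488%. In whole ganglia, fewer cells of a type and less RNA per cell cannot be told apart. Since the hour of dissection of each rat was not given, injury and time of day cannot be told apart for the clock genes either.

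Dbp encodes a PAR bZIP activator and is among the strongest direct outputs of the clock in many tissues. It measured 3.80, 5.83 and 5.11 FPKM in CCI 1, 2 and 3 and 3.29, 2.35 and 2.29 FPKM in sham 1, 2 and 3. Every CCI library was above every sham library, with CCI 1 the lowest of its group and sham 1 the highest of its own. The groups averaged 4.91 ± 1.03 and 2.64 ± 0.557 FPKM (SD, n = 3), a ratio of 1.86. The log2 fold change was 0.88 (standard error 0.21, 95% confidence interval 0.37 to 1.39, Benjamini-Hochberg adjusted p = 0.234 in edgeR's quasi-likelihood test). Its unadjusted p was 0.00517 in that test, and DESeq2 gave an adjusted p of 0.00584 by the Benjamini-Hochberg method. Over the alternatives its adjusted p ran from 0.00584 (DESeq2) to 0.503, by the same Benjamini-Hochberg method. The row lies on chromosome 1, 101687855 to 101692955, in the coordinates of the deposited table, and rested on 431 to 1070 counts per library.

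The REV-ERB genes, which encode heme-binding repressors of Arntl, were both highest in CCI 2. Nr1d1 measured 5.90, 7.75 and 6.98 FPKM in CCI 1, 2 and 3 and 5.44, 4.31 and 4.34 FPKM in sham 1, 2 and 3. All CCI libraries were again above all sham libraries, and CCI 1 and sham 1 were again the closest pair. Its log2 fold change of 0.53 (standard error 0.13, Benjamini-Hochberg adjusted p = 0.244 in edgeR's quasi-likelihood test) lay just under the limit of 0.58, at an unadjusted p of 0.00594. Without CCI 1 it became 0.63 and without sham 1 it became 0.64. In either case Nr1d1 was called higher as well, so that 2 clock genes were called. Of all 26663 rows, 562 were called higher without CCI 1 and 739 without sham 1. Nr1d2 measured 8.13, 10.5 and 9.07 FPKM in the CCI libraries and 8.63, 7.78 and 7.28 FPKM in the sham libraries. Its groups overlapped through CCI 1 and sham 1, and its log2 fold change of 0.21 did not pass (unadjusted p = 0.101 in the edgeR model). It was 0.11 without CCI 2 and 0.29 without CCI 1, where the unadjusted p was 0.0324 in that model but the fold stayed under the limit. The last 5912 bases of the Nr1d1 row, on the minus strand, overlap the plus-strand gene Thra, and it is not stated whether reads were counted by strand, so reads of the pair cannot be told apart there. Thra, a thyroid hormone receptor gene, measured 31.2, 30.9 and 33.7 FPKM in the CCI libraries and 33.8, 32.3 and 34.4 FPKM in the sham libraries, a log2 fold change of -0.09.

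The Period genes encode repressors of the BMAL1 and CLOCK pair, and they did not share a pattern. Per3 measured 3.47, 5.07 and 4.09 FPKM in CCI 1, 2 and 3 and 3.26, 3.23 and 2.86 FPKM in sham 1, 2 and 3, so the groups did not overlap but CCI 1 was close to the sham range. Its log2 fold change was 0.42 (standard error 0.14, Benjamini-Hochberg adjusted p = 0.368 in edgeR's quasi-likelihood test), under the fold limit, and its unadjusted p of 0.0231 became 0.0727 without sham 3. Without CCI 2, the library with the highest Per3, the log2 fold change was 0.26.

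Per1, a Period gene known to respond to glucocorticoids and to cAMP, varied more between rats of a group than any other tested clock gene. It measured 9.06, 4.94 and 4.09 FPKM in CCI 1, 2 and 3 and 3.41, 3.10 and 5.20 FPKM in sham 1, 2 and 3. CCI 1 stood far above the other libraries, and sham 3 was above CCI 2 and CCI 3. The log2 fold change of 0.61 (standard error 0.34) did not pass (unadjusted p = 0.120 in the edgeR model), and without CCI 1 it was 0.19. Per2 was the steadiest Period gene, between 1.23 and 1.78 FPKM in all 6 libraries. Its groups overlapped, and its log2 fold change was 0.10 (standard error 0.15).

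The Cryptochromes, the partners of the Period proteins in repression, differed in how far their groups lay apart. Cry1 measured 1.55, 1.46 and 1.67 FPKM in CCI 1, 2 and 3 and 1.82, 2.38 and 1.87 FPKM in sham 1, 2 and 3, every CCI library below every sham library. Its log2 fold change was -0.39 (standard error 0.15, Benjamini-Hochberg adjusted p = 0.434 in edgeR's quasi-likelihood test). Its unadjusted p was 0.0401, and it stayed under 0.05 with sham 1 left out but not with any other library left out, where it reached 0.130 (without sham 2, at a log2 fold change of -0.26). With a replicate block in the edgeR model, the unadjusted p of Cry1 was 0.0865. Cry2 lay between 7.29 and 9.16 FPKM, with overlapping groups and a log2 fold change of -0.04 (standard error 0.10). Ciart, which encodes CHRONO, a further repressor of the BMAL1 and CLOCK pair, was counted 91, 75 and 97 times in CCI 1, 2 and 3 and 68, 55 and 30 times in sham 1, 2 and 3. Every CCI count was above every sham count, with sham 3 the lowest. In a fit of all rows with a count its log2 fold change was 0.86 (standard error 0.36, unadjusted p = 0.0485 in the edgeR model), which met the limits for a call, while in the filtered table it was not tested.

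Arntl, the activator without which the clock stops, was the steadiest of the 10 genes. It measured 3.18, 3.21 and 3.62 FPKM in CCI 1, 2 and 3 and 3.57, 3.84 and 3.77 FPKM in sham 1, 2 and 3. CCI 1 and CCI 2 were below all sham libraries, and CCI 3 lay between sham 1 and sham 3, so the groups overlapped. The log2 fold change of -0.18 (standard error 0.08) did not pass (unadjusted p = 0.0765 in the edgeR model). The last 193 bases of its row on the plus strand are shared with the minus-strand gene Btbd10, whose log2 fold change was 0.02.

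Counted by overlap, 3 of the 9 tested genes (Per3, Nr1d1 and Dbp) had every CCI library above every sham library in FPKM, against 9.73% of all rows tested, and 1 (Cry1) had every CCI library below, against 7.56% of all rows. Ciart, which was not tested, was also higher in every CCI library.

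**Figure D3:**
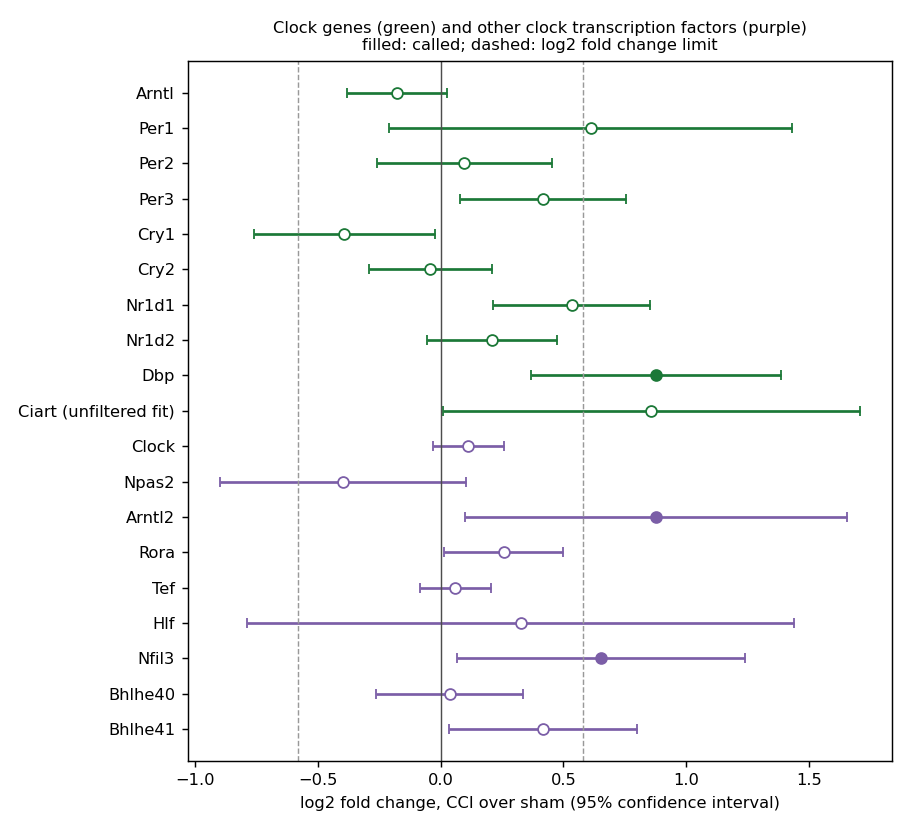
Log2 fold change of CCI over sham with its 95% confidence interval for the clock genes (green) and the other clock transcription factors tested (purple), with filled points for called genes and dashed lines at the fold limit. Among the genes tested in the filtered table, Dbp at 0.88 is the filled clock gene, and Arntl2 and Nfil3 are the filled factors. Ciart is drawn from the fit of all rows with a count, where it met the limits for a call.

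The spread between libraries of a group differed among the clock genes. It was taken as the SD of log2 CPM (counts relative to the scaled library size) around the group means, and the median over the 9 tested genes was 0.19, beside 0.22 over all rows tested. Arntl had the smallest SD at 0.08, above 19.9% of the 3306 rows within 0.5 log2 units of its level. Per1 had the largest at 0.51, above 96.3% of the 3079 rows of like level. Dbp had an SD of 0.30, above 82.6% of the rows of like level, and the other 6 tested genes had SDs from 0.15 to 0.20. Most clock genes were thus more spread than rows of like level, with Arntl and Cry1 below the middle of theirs.

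**Figure D4:**
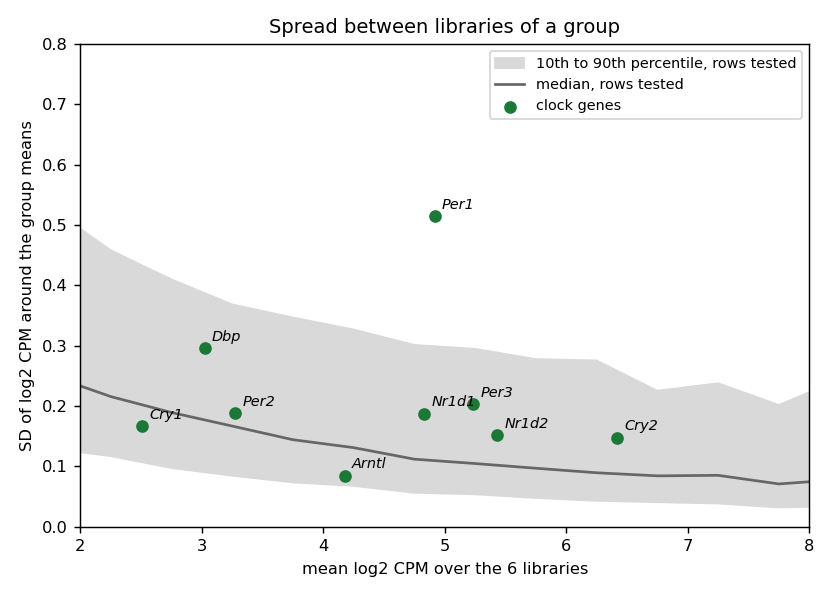
SD of log2 CPM around the group means against the mean log2 CPM for the 9 tested clock genes, over the median (line) and the 10th to 90th percentile (band) of all rows tested in bins of level. Per1 lies above the band at 0.51, and Arntl lies below the median line at 0.08.

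Across the 6 libraries Dbp, Nr1d1, Per3 and Nr1d2 kept nearly the same order. All 4 were highest in CCI 2 and next in CCI 3. Arntl and Cry1 ran the other way, with CCI 1 and CCI 2 as their lowest libraries and sham 2 as their highest. Pearson's r of log2 CPM over the 6 libraries, given as a description because the libraries share 2 groups, was 0.999 between Dbp and Nr1d1 and remained 0.995 after the group means had been subtracted. With Dbp it was 0.92 for Per3 and 0.91 for Nr1d2. With Arntl it was 0.88 for Cry1, -0.75 for Dbp, -0.77 for Nr1d1 and -0.65 for Nr1d2, Per3 and Per1 alike, 0.58 for Cry2 and -0.10 for Per2. After the group means had been subtracted, r with Arntl was -0.22 for Dbp and -0.29 for Nr1d1, so the opposite course of these genes lay mostly between the groups.

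**Figure D5:**
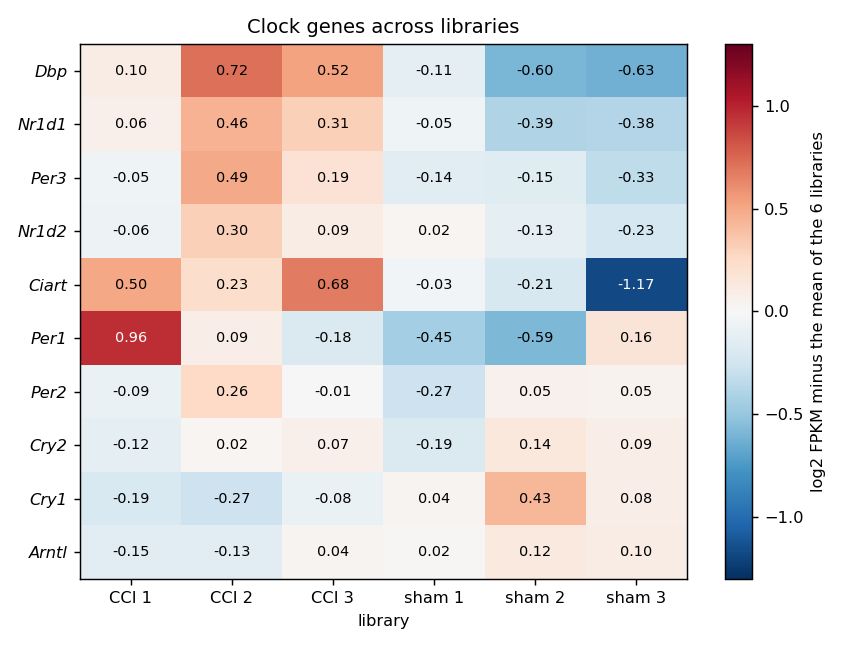
Log2 FPKM of each clock gene in each library, minus its mean over the 6 libraries. Dbp goes from -0.63 in sham 3 to 0.72 in CCI 2, Nr1d1, Per3 and Nr1d2 share its order in part, and Per1 peaks in CCI 1 at 0.96.

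Of 5260 tested protein-coding rows with a symbol and a range of at least 0.5 log2 units, the row most like Dbp was Nr1d1. Outside the clock genes the 5 most like Dbp were Btg2 (r = 0.994), Syngr2 (r = 0.986), Stxbp2 (r = 0.978), Gstcd (r = 0.976) and Nxpe1 (r = 0.971). Btg2, an antiproliferative gene of the immediate early class, measured 3.97, 5.04 and 4.78 FPKM in CCI 1, 2 and 3 and 3.33, 2.76 and 2.72 FPKM in sham 1, 2 and 3. It was highest in CCI 2 and lowest in sham 3, as Dbp was, and its log2 fold change was 0.63. The 5 rows most like Arntl were Erich3 (r = 0.999), AABR07027925 (r = 0.985), Ankrd55 (r = 0.969), Pih1d2 (r = 0.968) and Scarf1 (r = 0.968). After the group means had been subtracted, r ran from 0.899 (Gstcd) to 0.998 (Btg2) for the 5 named with Dbp. For the 5 named with Arntl it ran from 0.920 (Ankrd55) to 0.998 (Erich3). Because so many rows were ranked over 6 libraries, high r at the top can arise from selection alone, here and for Per1 below. Erich3 measured 4.21, 4.37 and 5.89 FPKM in the CCI libraries and 5.62, 7.03 and 6.64 FPKM in the sham libraries, lowest in CCI 1 and highest in sham 2 like Arntl.

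Per1 followed another course, and its likeness to other genes was looked up after its values had been seen. Its r with Dbp was 0.21 over the 6 libraries and -0.68 after the group means had been subtracted. Of the rows compared, the 5 most like Per1 were Fam110a (r = 0.983), RT1-DMa (r = 0.981), Kcnh5 (r = 0.976), Tmem198 (r = 0.971) and Lmo1 (r = 0.970), and none of the 10 closest was in the glucocorticoid list. Of the 10 glucocorticoid-responsive genes besides Per1 with the range to be compared, the closest to Per1 was Zbtb16, a zinc finger gene induced by glucocorticoids, with r = 0.955 and rank 11 of 5260. Errfi1 (0.819) and Ddit4 (0.802) came next, then Cdkn1a (0.661), Dusp1 (0.651), Pdk4 (0.559) and Nr3c1 (0.521). Mt1 (0.102), Mt2A (-0.244) and Lcn2 (-0.623) did not follow Per1. The other 5 (Fkbp5, Tsc22d3, Sgk1, Klf9 and Sult1a1) had too small a range. Fkbp5 lay between 3.94 and 4.92 FPKM in all libraries, and Tsc22d3 was highest in sham 3 at 60.5 FPKM and next in sham 2 at 56.7 FPKM, against 50.6 FPKM in CCI 1. Zbtb16 measured 7.64, 3.16 and 2.95 FPKM in CCI 1, 2 and 3 and 2.87, 2.31 and 4.87 FPKM in sham 1, 2 and 3. As for Per1, CCI 1 was the highest library, sham 3 the next and sham 2 the lowest. Ddit4 was also highest in CCI 1 at 27.5 FPKM and next in sham 3 at 19.3 FPKM, with the other libraries between 13.6 and 16.9 FPKM. Whether hormone level had a part in the course of Per1 was not tested.

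Of 9 tested among 10 other transcription factors of the clock, which are a part of those known, 2 were called higher, Arntl2 and Nfil3, and 4 had an unadjusted p under 0.05 with a positive fold in edgeR's quasi-likelihood test, against 2.57% and 5.57% of all rows. Arntl2, a paralogue of Arntl, measured 1.07, 1.11 and 0.660 FPKM in the CCI libraries and 0.389, 0.698 and 0.440 FPKM in the sham libraries. CCI 3 fell within the sham range. Its log2 fold change of 0.88 lost its call without CCI 1, CCI 2, sham 1 or sham 3, with values from 0.72 to 0.79. Nfil3, a D-box repressor that opposes Dbp, measured 3.87, 2.50 and 2.46 FPKM in the CCI libraries and 1.61, 1.65 and 2.29 FPKM in the sham libraries. The groups did not overlap, with CCI 1 the highest, unlike Dbp. Its log2 fold change of 0.65 lost its call without CCI 1, sham 1 or sham 2, with values from 0.40 to 0.58. Clock, the partner of BMAL1, had a log2 fold change of 0.11 (standard error 0.06), and Npas2, which can take its place, one of -0.40 (standard error 0.21), and neither passed. Rora (0.26) and Bhlhe41 (0.42) had an unadjusted p under 0.05 in the edgeR model but stayed under the fold limit.

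Among 16 tested kinases, ubiquitin ligases and partners of the clock proteins, of 19 listed, 0 were called in either direction. Of all rows, 2.57% were called higher and 1.26% lower. The median log2 fold change of the 16 was 0.02. In edgeR's quasi-likelihood test 1 was higher and 1 lower at an unadjusted p under 0.05, against 5.57% and 5.18% of all rows. Csnk1e, a casein kinase that phosphorylates PER proteins, measured 16.9, 15.5 and 15.4 FPKM in the CCI libraries and 13.8, 12.9 and 12.3 FPKM in the sham libraries. These groups did not overlap, and the log2 fold change was 0.28 (standard error 0.07). The largest of the other fold changes was that of Usp2, at -0.15, but it was 0.03 without sham 1 and -0.35 without sham 2. Of 16 tested output genes of the clock, of 17 listed, 0 were called as well, against 2.57% of all rows higher and 1.26% lower. At an unadjusted p under 0.05 in the same test 1 was higher and 1 lower, against 5.57% and 5.18% of all rows. Their median was 0.04. The largest were Avpr1a at 0.54, which was called without sham 3 at 0.85 but was 0.33 without CCI 1 and 0.34 without sham 2, and Ppp1r3c at -0.37. Hlf, a relative of Dbp that is in this list and among the factors and was chosen after its values had been seen, was called higher without sham 1 (0.96 in place of 0.33). Dbp itself is not counted in that list.

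Signals that reach the clock from outside were read from 4 more lists, whose counts stand beside 2.57% of all rows called higher and 1.26% called lower, and 5.57% higher and 5.18% lower at an unadjusted p under 0.05. Of 16 glucocorticoid-responsive genes, among them Per1 itself, 2 were called higher, Cdkn1a (1.26) and Nr3c1 (0.59), the glucocorticoid receptor gene, and 1 was called lower, the metallothionein gene Mt2A (-0.60), with 3 higher and 1 lower at an unadjusted p under 0.05. The median log2 fold change was 0.15, and 0.14 over the 15 genes besides Per1, but 0.02 over the 16 without CCI 1. Nr3c1 lost its call without CCI 1, CCI 2 or sham 1 (0.39 to 0.60) and Mt2A without CCI 2, CCI 3, sham 2 or sham 3 (-0.59 to -0.47), while without sham 1 Mt1 was called lower as well (-0.75). With limma on log2(FPKM + 1), Nr3c1 (0.53) and Mt2A (-0.47) also lost their calls. Mt2A lost its call with a replicate block too (unadjusted p = 0.0780 in the edgeR model).

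Of 10 heat-shock and cold-inducible genes, Hspa1b was called lower (-0.82), with 0 called higher and a median of -0.12, which was -0.07 without sham 2. At an unadjusted p under 0.05 and any fold, 4 of the 10 were lower, Hspa1b, Hsph1 (-0.36), Hspd1 (-0.20) and Hspa8 (-0.21), and 0 were higher, and Hspa8 kept this p only with sham 1 left out. Of 13 immediate early genes 3 were called higher, Jun (1.06), Btg2 (0.63) and Atf3 (3.47), with 0 called lower, 4 higher and 0 lower at an unadjusted p under 0.05 and a median of 0.46, and Btg2 lost its call without CCI 2 at 0.56. Atf3, a marker of injured neurons, measured 34.9, 20.3 and 16.2 FPKM in CCI 1, 2 and 3 and 1.89, 2.36 and 2.11 FPKM in sham 1, 2 and 3. Of the 3 CCI libraries CCI 1 was the highest in 5 of the 13 genes, CCI 2 in 7 and CCI 3 in 1. Among the 7, which include Btg2, CCI 2 stood apart in Fos (2.30, 9.22 and 3.25 FPKM in CCI 1, 2 and 3), Fosb (0.270, 1.38 and 0.223 FPKM), Egr1 (3.86, 9.58 and 6.51 FPKM) and Junb (4.27, 8.40 and 6.11 FPKM), which were chosen after their values had been seen. CCI 2 was also the highest library in Dbp, Nr1d1, Nr1d2 and Per3. Without CCI 2 the log2 fold change of Fos went from 0.68 to -0.14 and that of Fosb from 0.35 to -0.98, where Fosb was called lower and Egr2 higher (0.59), and the median of the 13 genes was 0.09. Without CCI 1 that median was 0.71, Junb (0.75) and Egr1 (0.73) were called higher and Egr3 was called lower (-0.75), as it was without sham 1 (-0.70). Dusp1 was called higher without CCI 3 (0.61) or sham 3 (0.60). The part of recent neuronal activity in the clock genes' values was not tested. Of 13 genes of the cAMP and CREB pathway 3 were called higher, the neuropeptide genes Adcyap1 (1.10) and Vip and the CREB-family gene Crem (0.75), with 0 called lower, 4 higher and 1 lower at an unadjusted p under 0.05 and a median of 0.03. Vip, whose peptide couples clock cells in the brain, was counted 1344, 374 and 240 times in the CCI libraries and 0, 0 and 8 times in the sham libraries. Crem kept its call without CCI 3 and lost it without any other library (0.43 to 0.85). It also lost its call with limma on log2(FPKM + 1) and on log2(FPKM + 0.1) (unadjusted p = 0.0855 and 0.0844 in limma). With a prior without trend in the edgeR model, its unadjusted p was 0.0520.

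Markers of the labelled tissue were abundant, with all 10 sensory neuron genes detected and Tubb3 between 1020 and 1490 FPKM. Their summed level was 4108, 4030 and 4006 FPKM in CCI 1, 2 and 3 and 3605, 4107 and 3938 FPKM in sham 1, 2 and 3, 0 were called, against 2.57% of all rows higher and 1.26% lower, and Nefh (-0.54) and Tubb3 (0.31) had the largest log2 fold changes. At an unadjusted p under 0.05 and any fold, 2 of the 10 were higher, Prph (0.25) and Tubb3, and 2 lower, Nefh and Calca (-0.15), against 5.57% and 5.18% of all rows. Nefh, a gene of large neurons, was called lower without CCI 2 (-0.60) or sham 1 (-0.59). Satellite glia markers, led by Apoe, summed to between 1066 and 1186 FPKM with 0 of 7 called. Their largest log2 fold changes were those of Fabp7 (-0.55) and Slc1a3 (-0.47). With 1 library left out, that of Fabp7 ran from -0.70 (without CCI 1) to -0.30 (without CCI 3). That of Slc1a3 ran from -0.91 (without CCI 2) to -0.16 (without sham 1). Schwann cell markers, led by Pmp22, summed to between 745 and 986 FPKM with 0 of 5 called. The largest log2 fold changes of these were those of Mag (-0.21) and Prx (-0.15). Without CCI 1, Mag was at -0.10 and Prx at -0.06, and without CCI 3 they were at -0.35 and -0.24.

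Markers of endothelium, fibroblasts, erythrocytes and adipocytes were called in neither direction, against 2.57% of all rows higher and 1.26% lower. In edgeR's quasi-likelihood test 0 of them had an unadjusted p under 0.05, against 5.57% of all rows higher and 5.18% lower. The median log2 fold change was -0.06 for the 4 tested of endothelium (Cldn5 had 0 counts in every library) and for the 5 of fibroblasts, -0.38 for the 3 of erythrocytes and -0.26 for the 3 of adipocytes. With 1 library left out, the median of fibroblasts ran from -0.31 (without CCI 2) to 0.13 (without CCI 1) and that of endothelium from -0.16 (without CCI 2) to 0.06 (without CCI 1). That of erythrocytes ran from -0.69 (without sham 3) to 0.19 (without sham 1) and that of adipocytes from -0.56 (without CCI 3) to 0.11 (without sham 1). The largest fold changes in log2 were Kdr (-0.24) and Cdh5 (-0.16), Col1a1 (-0.24) and Col3a1 (-0.14), Hbb (-0.54) and Slc4a1 (-0.38), and Fabp4 (-1.72, but 0.63 without sham 1) and Lpl (-0.26). Without sham 1, Kdr was at 0.01, Hbb at -0.17 and Slc4a1 at 0.25. Without CCI 1, Cdh5 was at 0.05, Col1a1 at -0.06, Col3a1 at 0.07 and Lpl at -0.07.

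CCI 1 stood apart in fibroblast markers, led by Dcn. Their summed level was 389, 685 and 605 FPKM in CCI 1, 2 and 3 and 614, 580 and 597 FPKM in sham 1, 2 and 3. Endothelial markers, led by Cdh5, summed to 14.2, 19.3 and 18.0 FPKM in the CCI libraries and 21.1, 15.6 and 16.8 FPKM in the sham libraries. In both lists, as in Dbp, CCI 2 was the highest and CCI 1 the lowest of the CCI libraries and sham 1 the highest of the sham libraries. The part of these cells in the clock genes' values was not tested.

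Macrophage markers were higher in the CCI group in part. Of 10 tested, 5 were called higher, namely Cd68, Csf1r, Cx3cr1, C1qa and C1qb, and 7 were higher at an unadjusted p under 0.05, against 2.57% and 5.57% of all rows, with 0 lower. The most abundant was Csf1r. With 1 library left out, 5 or 6 were called, as Ptprc was called without CCI 1 (0.58) or sham 1 (0.64) and Aif1 without CCI 3 or sham 3 (0.62 each). Cd163, Itgam and Mrc1 overlapped between the groups, and Cd163 was highest in sham 3 at 2.43 FPKM. The markers' summed level was 62.5, 53.4 and 40.5 FPKM in CCI 1, 2 and 3 and 26.5, 26.8 and 34.4 FPKM in sham 1, 2 and 3. Of the CCI libraries CCI 1, the lowest in Dbp, was the highest in 8 of the 10 markers, and CCI 2, the highest in Dbp, was the highest in the other two, Ptprc and Aif1. The markers named without a call were chosen after their values had been seen. The part of macrophages in the clock genes' values was not tested.

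Sham 1 stood apart in skeletal muscle markers and, to a lesser extent, in those of erythrocytes and adipocytes. The muscle markers summed to 13.7, 11.3 and 10.5 FPKM in CCI 1, 2 and 3 and 137, 10.3 and 22.3 FPKM in sham 1, 2 and 3, with Acta1 the most abundant. Of 8 tested, 5 were called lower in the CCI group, namely Acta1, Ckm, Tnni2, Mylpf and Actn3, against 1.26% of all rows, and of these Tnni2 alone was called without sham 1. Ckm and Mylpf also lost their calls without CCI 2 or CCI 3, and Acta1 and Actn3 without any 1 of the CCI libraries. All 5 lost their calls with limma on log2(FPKM + 1) and on log2(FPKM + 0.1). For Tnni2 the unadjusted p in these limma fits was 0.133 and 0.0754. With a replicate block in the edgeR model, Acta1 (unadjusted p = 0.0764) and Actn3 (unadjusted p = 0.0977) lost theirs. Actn3 also lost its call with a prior without trend. Other calls were gained, since Myh4, at -4.32 and an unadjusted p just over the limit, was called without CCI 1 (-6.18) or sham 2 (-4.90) and in DESeq2, with other size factors, with other filters and with a replicate block, and Tnnt3 without sham 2 (-2.04), where 7 of the 8 were called. Erythrocyte markers, led by Hbb, summed to 66.4 FPKM in sham 1 and to between 24.2 and 39.6 FPKM in the other libraries, and adipocyte markers, led by Lpl, to 9.91 FPKM in sham 1 and between 3.50 and 6.19 FPKM elsewhere. Sham 1 was also the highest sham library in Dbp, Nr1d1, Nr1d2, Per3 and Ciart. Without it the log2 fold change of Dbp was 1.06 in place of 0.88, and that of Per3 was 0.44 in place of 0.42.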

How the data were processed

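RNA of 3 CCI and 3 sham ganglia samples was sequenced after removal of ribosomal RNA. The authors mapped reads with HISAT2 2.0 and assembled them with StringTie 1.3.0, and they deposited for each gene row a whole-number count, not normalized, and an FPKM value. FPKM was proportional to the count within 1% in 18573 of 18684 rows with 100 or more counts in every sample, and 0 counts carry 0.0001 FPKM. Members and gene lists were chosen with earlier results of these data known. The lists are partial, and not every gene of a kind, or of those first listed, is reported. Rows averaging 0.5 FPKM or more were fitted with edgeR 4.0.16 (quasi-likelihood test, TMM factors from 0.988 to 1.01, trended prior), and p-values were adjusted over all 26663 rows by the Benjamini-Hochberg method. With 3 rats a group, the smallest p of an exact permutation test is 0.1, so none was run. Where several rows carry a symbol, a protein-coding row came first, then the largest total count. Named genes are the 10 clock genes, the called genes and the 2 largest fold changes of each other list, and the 5 rows most like Dbp and Arntl by Pearson's r. Genes named outside this rule, and the likeness to Per1, were chosen after their values were seen. Rows without a symbol (6849, 5.37% to 5.72% of counts) stayed in the fit. The alternatives were limma 3.58.1 on log2(FPKM + 1) and log2(FPKM + 0.1), DESeq2 1.42.0, RLE and upper-quartile factors, other filters, protein-coding rows alone, a prior without trend, a replicate block and leaving out each library.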

Additional observations from a re-analysis of the deposited data

How the results depend on the processing

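Dbp was called higher in CCI under all 16 alternatives tried, and its log2 fold change lay between 0.69 (limma on log2(FPKM + 1)) and 1.06 (without sham 1). The clock genes called higher numbered 2 without a filter on low values, where Ciart joined Dbp, beside 908 of all 35757 rows. They numbered between 1 and 2 when each library was left out in turn, beside 562 (without CCI 1) to 767 (without CCI 3) of all 26663 rows. Clock genes called lower remained at 0 throughout, beside 115 (protein-coding rows alone) to 465 (no filter) of all rows. The median log2 fold change of the clock genes lay between 0.11 and 0.27 when each library was left out and between 0.20 and 0.31 otherwise. The clock transcription factors called higher fell from 2 to 0 with limma on log2(FPKM + 1) and to 1 with a filter of 1 FPKM, and lay between 0 and 2 when each library was left out. Without a filter, 1 of the kinases, ligases and partners was called higher (Timeless), and the output genes called higher lay between 0 and 1 when each library was left out. The causes of these changes were not tested.

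The rats share replicate numbers, but same-numbered libraries did not deviate together over the rows as a whole (r = -0.00785, -0.0168 and -0.0529). This r cannot decide whether the numbers pair the rats, because a course shared by a few genes would hardly move it. Whether same-numbered rats were operated on or dissected together was not tested. With a replicate block, 1 clock gene was called higher and 0 lower, beside 617 and 318 of all 26663 rows. The median of the clock genes was 0.21, and 1 clock transcription factor was called higher in place of 2. The block left 0 of all rows at an adjusted p under 0.05, against 25 without it.

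Over all rows, limma on log2(FPKM + 1) gave 400 raised and 150 lowered rows in place of 686 and 336, and protein-coding rows alone gave 353 and 115. At an adjusted p under 0.05, DESeq2 called 747 rows, protein-coding rows alone 76, a prior without trend 14, limma on log2(FPKM + 1) 13, and leaving out each library 6 to 61. With 3 rats a group the confidence interval of Per1 ran from -0.21 to 1.43, so differences of either sign are within reach of these data.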
